A study of Homo sapiens with 2 samples.

Results

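The ephrin, Slit and netrin guidance genes are the Eph receptors, the ephrins, the Slits and Robos, and the netrins with their receptors. They were taken by a rule on gene symbols that uses no measured value, but the choice was made with earlier results of these data known. They made up 41 of the 25343 rows of the deposited expression table. The study compared 2 lines of C4-2B cells, a castration-resistant human prostate cancer line descended from LNCaP, by RNA-seq with 1 library each. C4-2B ENZR is the enzalutamide-resistant line, grown in serum-containing medium with 20 µM of enzalutamide, an antiandrogen drug. C4-2B Con is the enzalutamide-sensitive line, grown alongside with DMSO, the solvent. Both library titles carry the ending shC, whose meaning is not stated, and a control short hairpin RNA may be present in each line. Because the resistant cells were kept in the drug and the sensitive cells were not, resistance and the presence of the drug cannot be told apart. The labels give no number of clones or cultures behind either line, and no value has a replicate.

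Guidance genes steer growing axons and other moving cells, and epithelial and tumour cells use many of them in cell contact and migration. Eph receptors are receptor tyrosine kinases, and their ligands, the ephrins, are held on the surface of neighbouring cells, ephrin-A proteins by a lipid anchor and ephrin-B proteins by a transmembrane segment. Contact can signal into both cells. Slits are secreted ligands that mostly repel cells through Robo receptors. Netrins are secreted or membrane-anchored laminin-like proteins that attract through DCC or neogenin and repel when an UNC5 receptor takes part. DCC and the UNC5 proteins are also known as dependence receptors, which can promote cell death when no netrin is bound.

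The libraries held 23479051 reads in genes for ENZR and 21024484 for Con. The deposited unit was TMM-normalized CPM, a gene's reads scaled to a library of 1000000 reads and then between libraries. One read was worth 0.0404 CPM in ENZR and 0.0490 CPM in Con. All 11 luminal prostate markers examined were above a mean of 1 CPM. They summed to 3412 CPM in ENZR and 4443 CPM in Con, and among them KLK3, the prostate-specific antigen gene, had 92 reads in ENZR and 29157 reads in Con. The basal markers KRT5 and TP63, the endothelial marker CDH5, the fibroblast markers COL1A2 and PDGFRA and the blood cell markers CD3E and HBB had 0 reads in both libraries. The 5 basal markers summed to 4.85 CPM in ENZR and 1.18 CPM in Con, with TRIM29 at 117 reads in ENZR and 16 in Con, and the 6 blood cell markers summed to 5.30 CPM in ENZR and 3.43 CPM in Con, with LYZ at 126 reads in ENZR and 60 in Con.

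The 41 guidance genes together took 27242 reads, 0.116% of the total, in ENZR and 16477 reads, 0.0784%, in Con. A mean of 1 CPM or more over both libraries was reached by 27 of the 41. For these, 1 CPM was added to each value before the log2 ratio (ENZR over Con) was taken, a step that shrinks the ratios of low genes. Folds are given without that addition, and the counting interval beside a fold is its exact 95% binomial (Clopper-Pearson) interval. It covers counting error alone and not the spread between cultures, which is unknown. In RNA from whole cultures, fewer cells that express a gene and less RNA per cell cannot be told apart.

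Of the 27 genes, 9 had a log2 ratio of 1 or more, against 6.69% of the 13803 genes of the table that passed the same filter. Another 4 had a log2 ratio of -1 or less, against 4.64% of all genes. The median log2 ratio was 0.49 over the 27 genes and -0.01 over all 13803. Nothing is read from these counts, because 5 of the 27 had under 1 CPM in Con and 3 had under 1 CPM in ENZR, so they passed only through the library in which they were higher and had to differ. Of the 13 genes past 2-fold, 5 had at least 1 CPM in both libraries, 4 of them higher and 1 lower in ENZR. The counting interval of the fold left out 1 for 25 of the 27, but also for 71.2% of all genes, so at this depth it separates few genes from the rest.

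At means of at least 20 CPM, where no guidance gene was under 1 CPM in either library, 1 of 11 guidance genes was past 2-fold in either direction, and 6.09% of all 8329 genes at that level were. That gene was EPHA3. At means from 5 to under 20 CPM, 6 of 8 guidance genes were past 2-fold, and 18.1% of all 2914 genes at that level were. EFNB3 and EPHA6, among these 6, had under 1 CPM in 1 library and had to differ, so the count is a description. The levels were chosen after the values were seen. Means under 5 CPM are not compared because the filter fixes part of their counts.

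**Figure D1:**
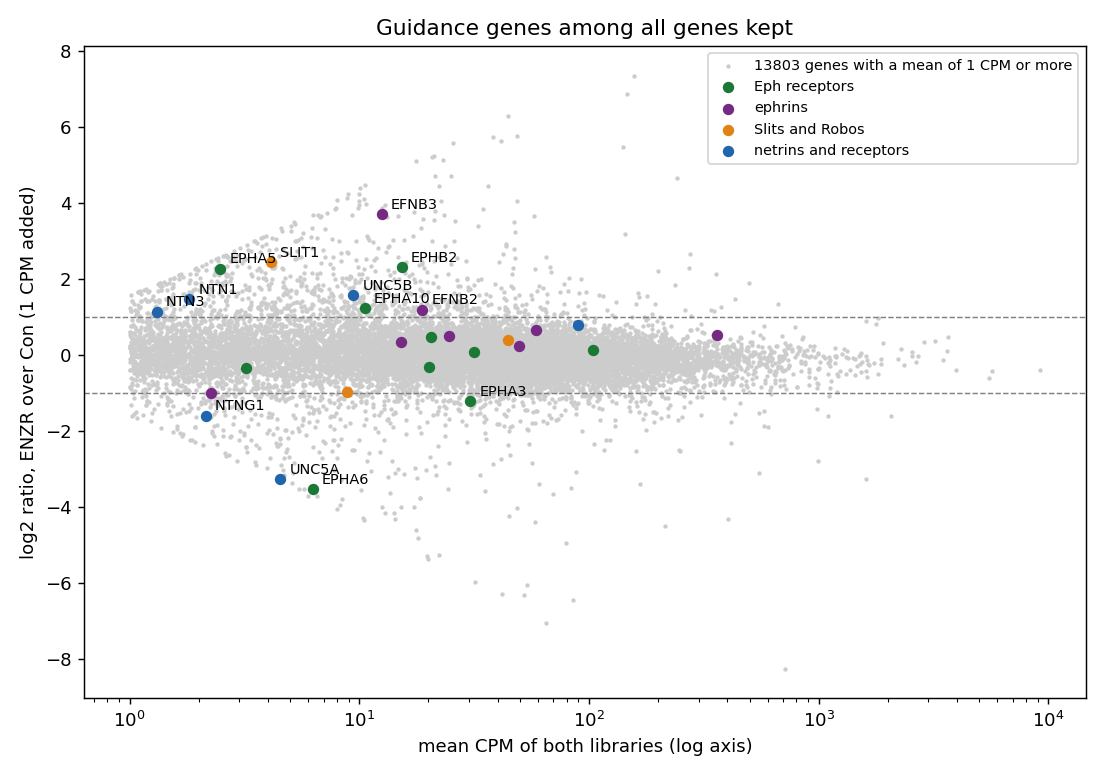
Each point is a gene, placed by its mean CPM over both libraries (log axis) and its log2 ratio (ENZR over Con, 1 CPM added), with the 27 guidance genes in colour over all 13803 genes in grey and dashed lines at 2-fold. The guidance genes past 2-fold have means of about 1 to 30 CPM, while EFNA5, EPHB4 and NEO1 on the right lie within the dashed lines.

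The 4 genes whose upstream sequence is given here differed by 5-fold or more, and each was nearly silent or low in one line. EPHA5 and NTNG1, whose sequences are not printed, also passed the filter, had a matched promoter and differed by 5-fold or more. EPHB2 and SLIT1 were higher in ENZR, and EPHA6 and UNC5A were lower. The 250 bases before the annotated start are printed 5′ to 3′ on the strand of the gene, from RefSeq on GRCh38.p14. EPHB2 lies at chr1:22710588-22710837 on the plus strand, SLIT1 at chr10:97185960-97186209 on the minus strand, EPHA6 at chr3:96814344-96814593 on the plus strand and UNC5A at chr5:176810309-176810558 on the plus strand. Capitals mark the GC box, GGGCGG on either strand, a site that SP1-type factors bind.
EPHB2: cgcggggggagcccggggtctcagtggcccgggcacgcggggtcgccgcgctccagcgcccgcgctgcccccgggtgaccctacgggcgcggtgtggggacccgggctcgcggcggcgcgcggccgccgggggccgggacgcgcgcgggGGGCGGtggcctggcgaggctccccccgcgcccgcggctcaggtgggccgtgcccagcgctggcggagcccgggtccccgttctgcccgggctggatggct
SLIT1: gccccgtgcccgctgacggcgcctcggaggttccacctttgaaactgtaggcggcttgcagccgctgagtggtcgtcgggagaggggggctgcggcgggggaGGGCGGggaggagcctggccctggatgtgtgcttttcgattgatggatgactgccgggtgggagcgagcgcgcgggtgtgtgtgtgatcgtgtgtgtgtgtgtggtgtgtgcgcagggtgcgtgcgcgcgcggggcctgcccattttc
EPHA6: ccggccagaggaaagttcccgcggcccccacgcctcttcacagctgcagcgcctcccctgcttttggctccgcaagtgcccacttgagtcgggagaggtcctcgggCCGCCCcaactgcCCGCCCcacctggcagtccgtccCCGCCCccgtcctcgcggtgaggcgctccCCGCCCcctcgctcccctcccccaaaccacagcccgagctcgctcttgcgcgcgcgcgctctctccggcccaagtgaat
UNC5A: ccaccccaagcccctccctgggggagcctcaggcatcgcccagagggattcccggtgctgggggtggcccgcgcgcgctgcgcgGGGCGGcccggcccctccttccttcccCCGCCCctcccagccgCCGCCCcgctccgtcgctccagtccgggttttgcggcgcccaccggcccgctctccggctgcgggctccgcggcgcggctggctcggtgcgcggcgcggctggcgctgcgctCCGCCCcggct

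The 4 upstream sequences were rich in CpG dinucleotides, and this did not separate the higher from the lower genes. They held 42 CpG in EPHB2 and 25 in SLIT1, against 26 in EPHA6 and 36 in UNC5A. The sequences of EPHA5 and NTNG1, not printed, held fewer, 14 and 10 CpG. The GC box was found at 1 place each in EPHB2 and SLIT1 and at 4 places each in EPHA6 and UNC5A. That split did not hold for other guidance genes past 2-fold. EFNB2 and EPHA5, both higher in ENZR, had 3 places and 1 place, and EPHA3 and NTNG1, both lower, had 0. For the higher genes EFNB3, EPHA10, NTN1, NTN3 and UNC5B no promoter was matched. RefSeq promoters were matched for 34 of the 41 guidance genes, with a median of 18 CpG in these 250 bases, and the median was 21 over 10013 promoters of genes that passed the filter. A GC box was present in 76.5% of the 34, against 66.9% of the 10013 promoters. The half-site of the androgen response element, AGAACA on either strand, was present in 2 of the 34, EPHB6 and NTN5, which is 5.88%, against 7.53% of the 10013. TATAAA was found on either strand in EFNB2 alone and CACGTG in EPHA8 alone, against 4.90% and 9.12% of the 10013. The 34 include genes that did not pass the filter, such as DCC and SLIT2, so the 10013 are not a matched set. Over all 27305 promoters, the median was 11 CpG. A GC box was in 42.3% of them, the half-site in 12.4%, TATAAA in 11.1% and CACGTG in 6.49%. A match in this window, or its absence, is a description and says nothing about binding. Which start these cells use was not measured.

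Eph receptors take the signal from ephrins. The 14 receptor genes together had 252 CPM in ENZR and 239 CPM in Con, a ratio of 1.05 (counting interval 1.01 to 1.09). Within that sum, 3 of the 10 receptors with a mean of 1 CPM or more passed 2-fold upward in ENZR, 2 passed it downward and 5 lay in between, against 6.69% upward and 4.64% downward of all genes. Of these 5 past 2-fold, EPHA5 and EPHA6 passed the filter only through the line in which they were higher, so the counts are a description. The EphA receptors summed to less in ENZR, at 80.5 CPM in ENZR and 101 CPM in Con. The EphB receptors summed to more, at 171 CPM in ENZR and 138 CPM in Con.

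EPHB2, a receptor for ephrin-B ligands that positions cells along the intestinal crypt, had 645 reads (26.1 CPM) in ENZR and 91 reads (4.46 CPM) in Con. It was 5.85-fold higher in ENZR (counting interval 4.69 to 7.37). EPHA5, a receptor of neuronal tissue that binds ephrin-A ligands, had 118 reads (4.77 CPM) in ENZR and 4 reads (0.196 CPM) in Con. The ratio was 24.3 with a wide interval of 9.26 to 90.8, so EPHA5 stood at a low level in ENZR and had almost no reads in Con. EPHA10, whose kinase domain is taken to be inactive, had 15.2 CPM in ENZR and 5.88 CPM in Con, 2.59-fold higher (2.11 to 3.21).

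EPHA6 and EPHA3, also receptors of the ephrin-A class, were the receptors past 2-fold lower in ENZR. EPHA6 had 4 reads (0.162 CPM) in ENZR and 253 reads (12.4 CPM) in Con, which is 76.6-fold lower (29.6 to 283). EPHA3 had 17.9 CPM in ENZR and 42.8 CPM in Con, 2.39-fold lower (2.13 to 2.69). Both lie on chromosome 3, where the 769 measured genes had a median log2 ratio of 0.08. The 20 measured genes nearest to EPHA6 had a median of 0.06 and those nearest to EPHA3 a median of -0.03, so the medians around both lay near 0.

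The other receptors above the filter lay within 2-fold. EPHB4, a receptor of ephrin-B2 in blood vessels and in many carcinomas, had 109 CPM in ENZR and 99.2 CPM in Con, a ratio of 1.10 (1.04 to 1.17). EPHB3, a receptor related to EPHB2, had 32.7 CPM in ENZR and 30.6 CPM in Con, and its interval of 0.960 to 1.19 held 1. EPHA2, an epithelial receptor for ephrin-A1, had 17.8 CPM in ENZR and 22.4 CPM in Con, 1.26-fold lower (1.11 to 1.44). EPHA1, the first receptor of the family to be isolated, had 24.1 CPM in ENZR and 16.9 CPM in Con, 1.43-fold higher (1.25 to 1.63). EPHB6, which lacks kinase activity, had 2.71 CPM in ENZR and 3.72 CPM in Con, and its interval of 0.516 to 1.02 held 1. The receptors EPHA4, EPHA7, EPHA8 and EPHB1 had 1 to 12 reads in ENZR and 0 to 7 reads in Con, too few to separate the libraries.

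Per kilobase of annotated exons, the scale on which genes can be set against each other, EPHB4 led the receptors in both lines, with 17.0 CPM per kb in ENZR and 15.4 in Con. EPHB3 followed in both, at 7.21 CPM per kb in ENZR and 6.76 in Con. Behind them the order changed. In ENZR came EPHA1 at 5.09, EPHA2 at 4.27 and EPHA3 at 2.68 CPM per kb, and in Con came EPHA3 at 6.42, EPHA2 at 5.40 and EPHA1 at 3.57. EPHA3 thus had the largest share of EphA transcripts per length in Con, 35.3%, and EPHA1 the largest in ENZR, 35.1%. No spread over cultures is available to say which neighbours in this order differ.

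**Figure D2:**
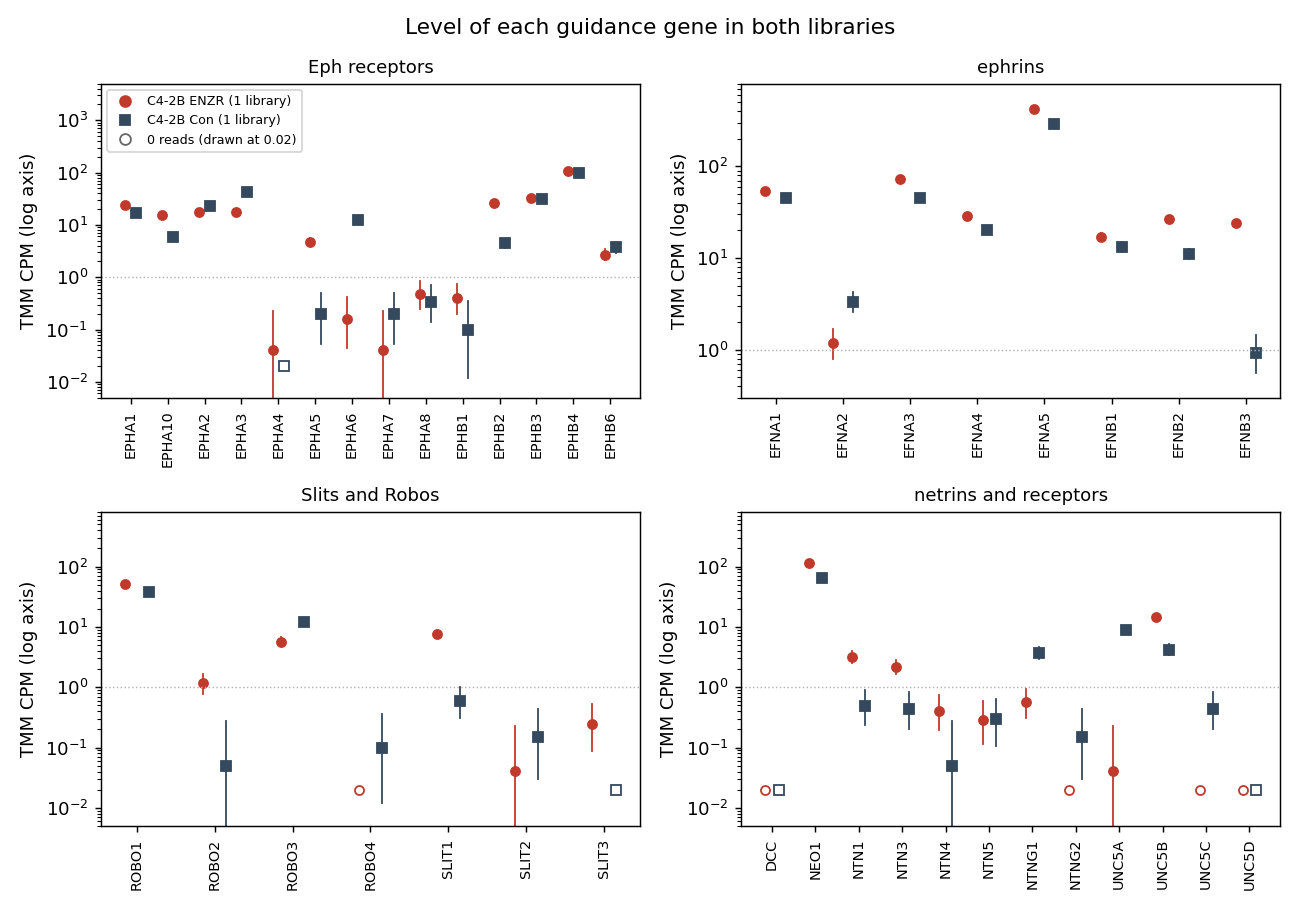
TMM-normalized CPM (log axis) of all 41 guidance genes, with C4-2B ENZR as red circles, C4-2B Con as dark squares, exact 95% Poisson intervals of counting error as bars (those of single reads run off the lower edge), open symbols for 0 reads and a dotted line at 1 CPM. EPHA6 and UNC5A are far lower in ENZR, while EPHA5, EPHB2, EFNB3 and SLIT1 are far higher, and the genes at the top of each panel lie close together.

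All 8 ephrins had a mean above 1 CPM, and 7 of the 8 had a log2 ratio above 0, as had 6827 of the 13803 genes overall. Past 2-fold upward were 2 of 3 ephrin-B genes and 0 of 5 ephrin-A genes, against 6.69% of all genes. Of these, EFNB3 had under 1 CPM in Con and passed the filter only through ENZR, so the counts are a description. The sum of the ephrins was 650 CPM in ENZR and 432 CPM in Con, a ratio of 1.502 (1.46 to 1.54), and EFNA5 alone made up 65.5% of it in ENZR and 67.8% in Con. The ephrin-A ligands had 582 CPM in ENZR and 407 CPM in Con, and the ephrin-B ligands had 67.8 CPM in ENZR and 25.2 CPM in Con. The ratio was thus 1.43 (1.39 to 1.47) for the A class and 2.69 (2.43 to 2.97) for the B class.

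EFNB3, a transmembrane ephrin known from the midline of the spinal cord, showed the largest ratio of the ephrins. It had 596 reads (24.1 CPM) in ENZR and 19 reads (0.931 CPM) in Con, 25.9-fold higher (16.4 to 43.3). Its log2 ratio of 3.70 was the highest of the 27 guidance genes. The 20 measured genes nearest to it on chromosome 17 had a median log2 ratio of 0.14. EFNB2, the ephrin of arterial endothelium and a ligand of EPHB4, had 26.6 CPM in ENZR and 11.1 CPM in Con, 2.40-fold higher (2.06 to 2.80). It stood out from its surroundings on chromosome 13, where the 236 measured genes had a median log2 ratio of -0.54 and the 20 nearest a median of -0.42. An antisense gene covers 26.2% of the exon bases of EFNB2, and whether the counting used strand is not given in the sources used here, so reads of the pair cannot be told apart. EFNB1, an X-linked ephrin, had 17.1 CPM in ENZR and 13.2 CPM in Con, 1.29-fold higher (1.11 to 1.51).

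EFNA5, a lipid-anchored ephrin that binds EphA receptors and also EPHB2, was the most abundant guidance gene in both lines. It had 426 CPM in ENZR and 293 CPM in Con, 1.45-fold higher (1.41 to 1.498). That level placed EFNA5 at rank 280 of all rows in ENZR and at rank 582 in Con. Per kilobase of exons it also came first, at 74.6 CPM per kb in ENZR and 51.4 in Con. The 564 measured genes of chromosome 5, which carries EFNA5, had a median log2 ratio of -0.32, against 0.54 for EFNA5.

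The other ephrin-A ligands sit in a cluster on chromosome 1, apart from EFNA2. EFNA3 had 72.2 CPM in ENZR and 45.4 CPM in Con, 1.59-fold higher (1.47 to 1.73). EFNA4 had 29.1 CPM in ENZR and 20.1 CPM in Con, 1.45-fold higher (1.28 to 1.64), and EFNA1, a high-affinity ligand of EPHA2, had 53.8 CPM in ENZR and 45.2 CPM in Con, 1.19-fold higher (1.09 to 1.30). The 3 clustered genes were thus each modestly higher. An annotated read-through transcript shares 42.2% of the 50-base words of EFNA3 and 10.7% of those of EFNA4, so the split of reads there is uncertain. EFNA2, on chromosome 19, went the other way, with 29 reads (1.17 CPM) in ENZR and 68 reads (3.33 CPM) in Con, 2.84-fold lower (1.81 to 4.55). With 1 CPM added its log2 ratio was -0.995, just short of 2-fold, and the 20 nearest measured genes had a median of -0.64.

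**Figure D3:**
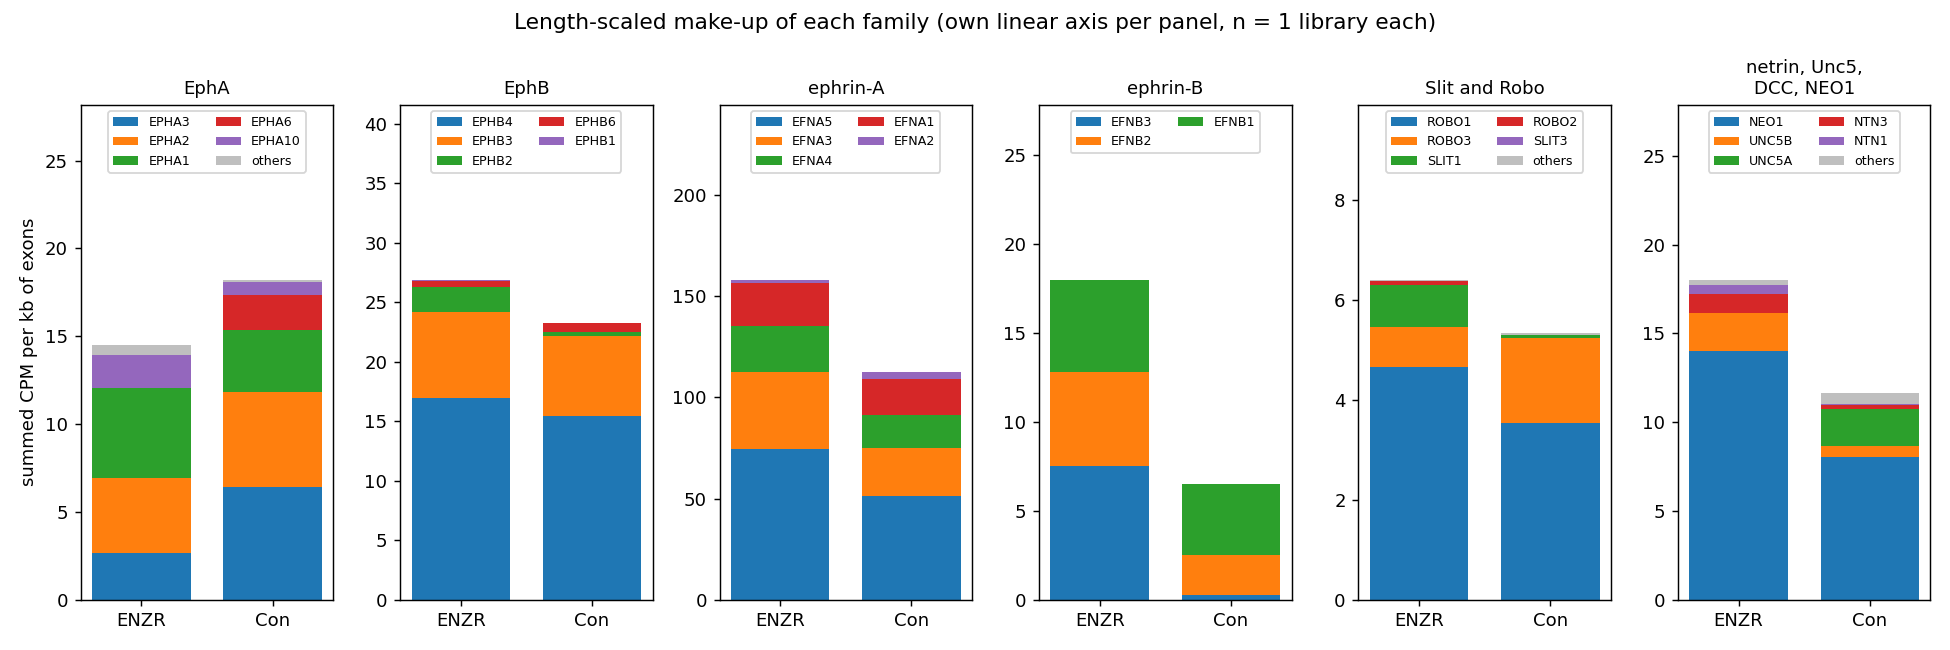
Stacked bars give the summed CPM per kilobase of annotated exons for 6 groups of guidance genes in C4-2B ENZR (left bar) and C4-2B Con (right bar), each panel with its own linear axis from 0. EFNB3 adds 7.48 CPM per kb to the ephrin-B bar in ENZR and 0.289 in Con, the EPHA3 part of the EphA bar is smaller in ENZR, and UNC5A gives way to UNC5B in the netrin panel.

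Slits, the secreted ligands of the Robo receptors, were represented by SLIT1 alone above a mean of 1 CPM. SLIT1 had 189 reads (7.64 CPM) in ENZR and 12 reads (0.588 CPM) in Con, 13.0-fold higher (7.27 to 25.6). A read-through gene that joins ARHGAP19 to SLIT1 was listed at 1.54 CPM in ENZR and 0 CPM in Con, and 1.82% of the 50-base words of SLIT1 occur in it. SLIT2 had 1 read in ENZR and 3 reads in Con, and SLIT3 had 6 reads in ENZR and 0 in Con, so neither had more than a few reads.

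Robo receptors were dominated by ROBO1, the broadly expressed Slit receptor, which made up 84.2% of Robo CPM per kb in ENZR and 67.2% in Con. ROBO1 had 50.7 CPM in ENZR and 38.4 CPM in Con, 1.32-fold higher (1.21 to 1.44). ROBO3, a divergent member that mammalian commissural axons need to cross the midline, had 5.66 CPM in ENZR and 12.0 CPM in Con, 2.12-fold lower (1.72 to 2.63). Its log2 ratio with 1 CPM added was -0.965, short of the 2-fold line. ROBO2, a receptor of kidney and brain development, had 29 reads (1.17 CPM) in ENZR and 1 read (0.0490 CPM) in Con. The ratio was 23.9 with an interval of 3.97 to 978, and its mean stayed under 1 CPM. ROBO4, the Robo of endothelium, had 0 reads in ENZR and 2 in Con.

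Netrins were scarce in both lines, with the secreted NTN1 and NTN3 higher and the lipid-anchored NTNG1 lower in ENZR. NTN1, the classical secreted netrin and ligand of DCC, neogenin and UNC5 receptors, had 78 reads (3.15 CPM) in ENZR and 10 reads (0.490 CPM) in Con, 6.44-fold higher (3.32 to 14.0). NTN3, another secreted netrin, had 54 reads (2.18 CPM) in ENZR and 9 reads (0.441 CPM) in Con, 4.95-fold higher (2.43 to 11.4). NTN4, a netrin of basement membranes, had 10 reads in ENZR and 1 read in Con, with an interval of the ratio from 1.17 to 358. Against these, NTNG1, a lipid-anchored netrin that does not bind DCC, had 14 reads (0.566 CPM) in ENZR and 76 reads (3.72 CPM) in Con, 6.58-fold lower (3.69 to 12.6). NTN5 had 7 reads in ENZR and 6 in Con, and NTNG2, the other lipid-anchored netrin, had 0 reads in ENZR and 3 in Con.

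UNC5 receptors exchanged places between the lines. UNC5B, a receptor for netrin-1 known from blood vessels, had 362 reads (14.6 CPM) in ENZR and 86 reads (4.21 CPM) in Con, 3.47-fold higher (2.74 to 4.45). UNC5A had 1 read (0.0404 CPM) in ENZR and 184 reads (9.01 CPM) in Con, a ratio of Con over ENZR of 223 with an interval of 39.5 to 8852. Per kilobase of exons UNC5B was 99.6% of all UNC5 signal in ENZR, and UNC5A was 75.9% of it in Con. The sum of the 4 UNC5 genes was 14.7 CPM in ENZR and 13.7 CPM in Con, a ratio of 1.07 whose interval of 0.916 to 1.26 held 1. UNC5A lies on chromosome 5, and the 20 measured genes nearest to it had a median log2 ratio of -0.53, against -3.27 for UNC5A. UNC5C had 0 reads in ENZR and 9 in Con, so its fold is not defined. The Con value over an assumed floor of 3 reads in ENZR was 3.63, and the exact interval of Con over ENZR began at 2.39. UNC5D had 0 reads in both.

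DCC, the attractive netrin receptor whose gene is often lost in colon cancer, had 0 reads in both lines, which allows up to 0.121 CPM in ENZR and 0.147 CPM in Con at a floor of 3 reads. Its relative NEO1, neogenin, which binds netrins and the repulsive guidance molecules, was the most abundant netrin receptor. NEO1 had 114 CPM in ENZR and 65.4 CPM in Con, 1.74-fold higher (1.63 to 1.86), and the 20 nearest measured genes on chromosome 15 had a median log2 ratio of 0.23. It made up 77.8% of the netrin and netrin receptor CPM per kb in ENZR and 69.4% in Con.

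**Figure D4:**
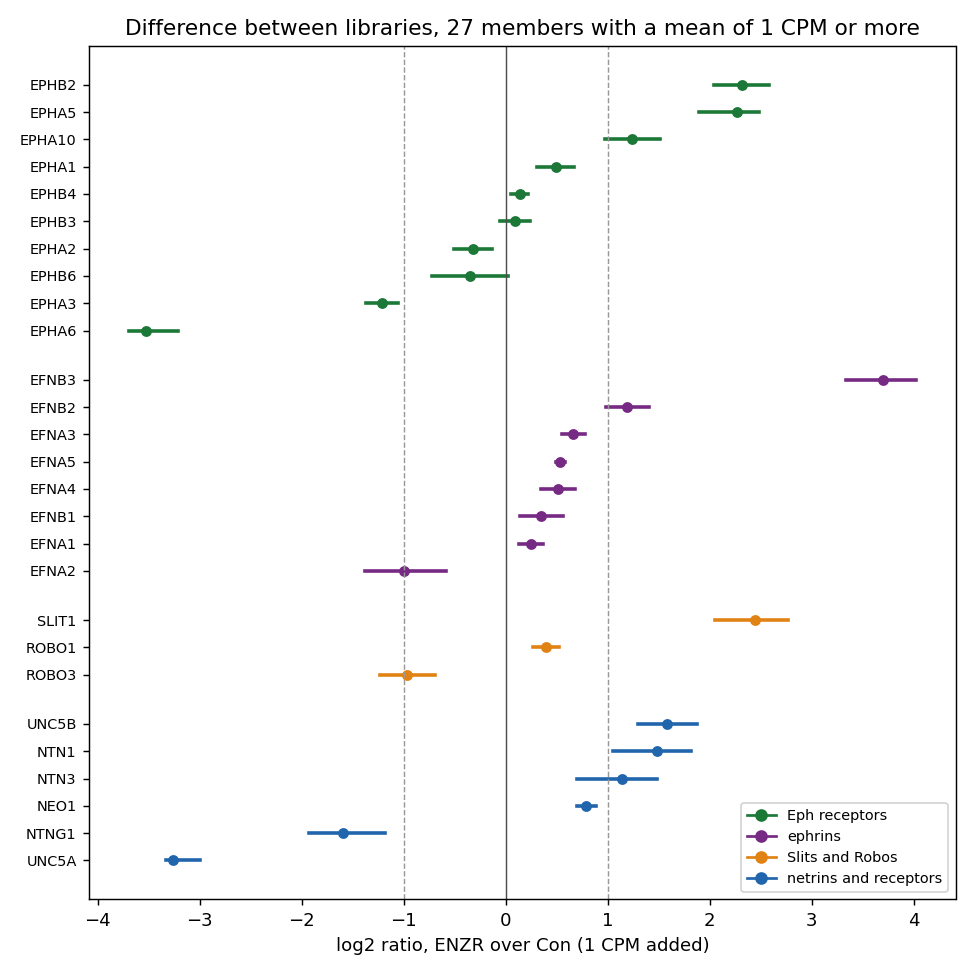
Log2 ratio (ENZR over Con, 1 CPM added; points) with the exact 95% counting interval (lines) for the 27 guidance genes that passed the filter, grouped by family and with dashed lines at 2-fold. EFNB3 at 3.70 and EPHA6 at -3.53 are the extremes, and 7 of 8 ephrins lie above 0.

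Genes that act with these ligands and receptors were taken from 4 lists. For comparison, 6.69% of all genes that passed the filter were past 2-fold upward and 4.64% downward, with a median log2 ratio of -0.01. The counts of these short lists are a description. Of 28 genes that work with Eph receptors and ephrins, 23 had a mean of 1 CPM or more, and 1 passed 2-fold upward and 0 downward, with a median log2 ratio of 0.06. The higher gene was KALRN, a guanine nucleotide exchange factor of dendritic spines, at 13.1 CPM in ENZR and 2.50 CPM in Con, 5.26-fold higher (3.91 to 7.21). The kinases and adaptors of the pathway, among them SRC, FYN, NCK1 and GRB2, all had log2 ratios short of 2-fold.

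Slit and Robo partners had a median of 0.31 over 19 genes, of which 2 passed 2-fold upward and 1 downward. SRGAP3, a Rac-inactivating protein that binds Robo, had 11.0 CPM in ENZR and 2.65 CPM in Con, 4.16-fold higher (3.10 to 5.68). PAK3, a kinase under Rac and CDC42, had 58 reads in ENZR and 1 read in Con, a ratio of 47.9 with an interval of 8.26 to 1923. With under 1 CPM in Con, PAK3 passed the filter only through ENZR. EVL, an actin regulator of the Ena/VASP family, had 19.5 CPM in ENZR and 46.2 CPM in Con, and its ratio was 0.423 (0.378 to 0.473).

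Netrin partners had a median of 0.36 over 13 genes, 3 past 2-fold upward and 1 downward. DAPK1, a death-associated kinase that binds UNC5 receptors, had 25.2 CPM in ENZR and 1.13 CPM in Con, 22.4-fold higher (14.8 to 35.6). RGMA and RGMB, the repulsive guidance molecules that bind neogenin, differed in direction. RGMA had 10.8 CPM in ENZR and 1.62 CPM in Con, 6.68-fold higher (4.64 to 9.90). RGMB had 33.7 CPM in ENZR and 80.2 CPM in Con, with a ratio of 0.421 (0.386 to 0.457). APBB2, an adaptor, had 35.0 CPM in ENZR and 13.6 CPM in Con, 2.58-fold higher (2.25 to 2.96).

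Small GTPase effectors, the shared end of these pathways at the cytoskeleton, had a median of 0.12 over 18 genes, with 2 past 2-fold upward and 0 downward. Both were collapsin response mediators, microtubule-binding proteins of growth cones. DPYSL5 had 23.1 CPM in ENZR and 5.05 CPM in Con, 4.58-fold higher (3.71 to 5.71), and DPYSL2 had 38.6 CPM in ENZR and 16.7 CPM in Con, 2.32-fold higher (2.04 to 2.63). Over the 73 partner genes of all lists that passed the filter, 11.0% were past 2-fold upward and 2.74% downward, against 6.69% and 4.64% of all genes.

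Markers of neurons differed in level only in part. The 10 neuroendocrine and neuronal markers summed to 100.2 CPM in ENZR and 31.2 CPM in Con, of which ENO2 alone gave 87.1 CPM in ENZR and 8.33 CPM in Con. The markers CHGA, INSM1, STMN2 and ELAVL4 had 0 to 3 reads in either library. SYP had 32 reads in ENZR and 34 in Con, and the interval of its ratio, 0.464 to 1.30, held 1. NCAM1, a neural adhesion molecule, had 73 reads (2.95 CPM) in ENZR and 3 reads (0.147 CPM) in Con, a ratio of 20.1 (6.61 to 99.6), whereas TUBB3, a neuronal tubulin, had 8.61 CPM in ENZR and 21.0 CPM in Con. The 6 endothelial markers, which bear on ROBO4, EFNB2, EPHB4 and UNC5B, summed to 5.98 CPM in ENZR and 11.4 CPM in Con. VWF alone gave 2.91 CPM of this in ENZR and 8.92 CPM in Con, so the lower sum came from VWF. KDR, CLDN5 and PECAM1 had 16, 18 and 41 reads in ENZR and 4, 13 and 32 in Con. TEK had 1 read in each library and CDH5 had 0. The 7 fibroblast markers summed to 47.4 CPM in ENZR and 20.8 CPM in Con, nearly all of it from COL1A1, and their part in the differences above was not tested.

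Reads that could come from more than one gene were looked for by shared sequence. Of the 41, 21 shared no 50-base word, the read length of this study, with transcripts of any other gene on either strand, and 37 shared under 5% of them. EPHA2 and EPHB2 were the pair of guidance genes with words in common, 10 each. The 4 genes at or above 5% were EFNB2, EFNA3, EFNA4 and ROBO4, shared mainly with an overlapping transcript at the same locus.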

How the data were processed

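RNA-seq of 1 C4-2B ENZR library and 1 C4-2B Con library was read from the table the authors deposited, with 25343 rows and a signal value per gene and library in TMM-normalized CPM. Bowtie2 2.1.0, RSEM 1.2.15, edgeR and the build hg19 are listed, without roles, per the submitters' processing notes. Neither the annotation nor the strand setting is given in the sources used here. Columns of other samples numbered 0.

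Each deposited value was a whole multiple of 1 step per library. Within 0.01 reads, 100% of values came out whole in each library, so reads per gene were recovered. RSEM estimates counts, so these may be rounded estimates. With 1 library per group no count test has residual degrees of freedom, so none was run, 0 genes were called by one, and no p-value is given. Ratios received exact 95% binomial intervals in Python 3.11.15 with scipy 1.17.1. Intervals and the floor of 3 reads cover counting error only. The calculation was tested on simulated data with known ratios.

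The guidance genes were matched by symbol. The 13803 genes that averaged at least 1 CPM entered the log2 ratio, with 1 CPM added. Every guidance gene is named. From each partner list the rule names up to 5 genes past 2-fold, the largest first. The guidance genes and all lists were chosen with earlier results of these data known. Exon lengths, chromosomes, neighbouring genes, overlaps and 50-base words come from GENCODE 29 on GRCh38, and promoters from RefSeq on GRCh38.p14, whereas the submitters name hg19. Of all rows, 23465 were placed on GENCODE. Exon lengths are unions over all transcripts, not the effective lengths of RSEM. No protein sequence was used. Other pseudocounts, filters and scalings were tried. Some marker genes are not reported here.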

Additional observations from a re-analysis of the deposited data

How the results depend on the processing

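Of 124 log2 ratios of the 13 guidance genes past 2-fold under 10 alternative settings, 0 changed sign, but most of these settings move values too little to turn one, and the filter at a mean of 5 CPM gave no value for 6 of the 13. Counts depended on the pseudocount and the filter. With 5 CPM added in place of 1 CPM, 4 guidance genes were at least 2-fold higher and 3 lower, and EFNB2, EPHA10, EPHA5, NTN1, NTN3 and NTNG1 fell short of 2-fold. With a mean of 5 CPM required, 19 guidance genes were left, 5 higher and 2 lower. With 0.5 CPM added, and with the plain CPM ratio, a setting chosen after seeing the data, EFNA2 and ROBO3 also passed 2-fold and 6 genes were lower. With the TMM scaling undone or the 10 most abundant genes left out of the totals, the median log2 ratio of the guidance genes was 0.60 in place of 0.49, while the median of all genes moved to 0.10, and 9 higher and 4 lower genes were counted. Subtracting the median of the 20 nearest measured genes turned EPHB3 below 0 and took EPHA10 to 0.96. No paired analysis was possible because each group has 1 library. Ratios on a few reads, as for UNC5A, EPHA5 and ROBO2, are limited by depth.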
